A study of Rattus norvegicus with 24 samples.

Results

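Dbp, Tef, Nr1d2, Bhlhe40 and Bmal1 are transcription factors of the circadian clock, the gene loop that keeps daily time inside cells. These 5 genes, of 6455 genes with a single symbol on the arrays, were followed here in rat mesenteric artery, the vessel bed that feeds the intestine. They were measured by 6 probes, 1 for each gene and a second for Nr1d2, and all 6 probes had enough values to be tested. The genes were singled out because earlier results of the same arrays had shown them apart between testosterone and vehicle, so their values and calls in that comparison describe how they were chosen and are no independent test.

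All groups were female Sprague Dawley rats whose ovaries had been removed at 3 weeks of age and that had recovered for 2 weeks, the vehicle animals included. The groups received testosterone (1.0 mg per kg per day), estradiol benzoate (estradiol in an ester form given by injection, 0.15 mg per kg per day) or the sesame oil vehicle, by intraperitoneal injection for 4 days, with 4 animals in each group, and were 5.5 weeks old at the end. Each animal's RNA was read on 2 CodeLink arrays, technical duplicates named AA and AB, and each animal is called by its treatment and label number. The animals were killed after the last injection, and the hour of day is not given in the sources used here. The hour bears on every comparison of clock genes, between groups and between animals of a group. Its part in the differences below could not be tested. Levels are the deposited intensities, in units in which the median probe of an array lies between 0.926 and 0.951, so levels of different probes are not compared with each other.

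In mammals, a complex of BMAL1 and CLOCK binds E-box elements (CACGTG and related sequences) and switches on genes that hold it back or carry the rhythm to other genes. DBP and TEF are such output factors and bind D-box elements, NR1D2 (also called REV-ERB beta) represses Bmal1 through ROR elements, and BHLHE40 (DEC1) competes at E-boxes. Transcripts driven by E-boxes, such as Dbp, and Bmal1 itself, driven by ROR elements, peak at opposite times of day, and blood vessels are among the tissues with a clock of their own.

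Sequences before the members' starts were searched because the 5 genes differed between groups together, in opposite directions for Bmal1 and the others. The search covered the 250 bases before each start in the RefSeq promoter table (rat build GRCr8), on both strands, for CACGTG, the D-box sequences TTATGTAA and TTACGTAA, and the ROR element cores TAGGTCA and TGGGTCA. The E-box was found before Tef and Bhlhe40, beginning 198 and 220 bases before the start, and TAGGTCA was found before Bmal1, beginning 16 bases before the start. The table's shares for these sequences were 5.59% of 33469 promoters for CACGTG and 2.26% for TAGGTCA. None of the sequences was in the windows of Dbp and Nr1d2, which says only that these letters are not there. The 30 bases around each match are shown, from the plus strand, with the match in capitals.
Tef: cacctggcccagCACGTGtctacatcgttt
Bhlhe40: agcgttgtccaaCACGTGagactcatgtga
Bmal1: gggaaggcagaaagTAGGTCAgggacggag
The Tef stretch is chr7:115206617-115206646 and the Bmal1 stretch chr1:176766298-176766327, and both lie inside the annotated gene, whose span begins further upstream. The Bhlhe40 stretch, chr4:143174218-143174247, lies before the annotated gene, which spans positions 143174450 to 143180150 of chromosome 4. A match is a description of the sequence and not a shown binding site.

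All 5 members stood in the same order of group means, with the estradiol benzoate animals between the others. Dbp, Tef, Nr1d2 and Bhlhe40 were highest with testosterone and lowest with vehicle, and Bmal1 was lowest with testosterone and highest with vehicle. Among all 10228 tested probes, 20.2% had means in the first order and 21.2% in the second.

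Dbp, the output factor with the widest difference, had intensities of 11.3, 10.9, 14.6 and 13.1 in testosterone animals 2, 4, 6 and 8. In estradiol benzoate animals 2, 3, 5 and 8 it had 4.10, 6.03, 3.91 and 9.63, and in vehicle animals 3, 4, 5 and 8 it had 2.71, 2.58, 3.32 and 4.38. The testosterone animals lay above every other animal, while the estradiol benzoate animals overlapped the vehicle animals, with animal 8 close to the testosterone range. The group means on the linear scale (geometric) were 12.4, 5.52 and 3.18 for testosterone, estradiol benzoate and vehicle. Testosterone animal 6 rests on array AB alone, since the spot was blank on array AA.

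Tef, a relative of Dbp that binds the same D-box elements, was a dim spot, with 0.226, 0.221, 0.416 and 0.330 in testosterone animals 2, 4, 6 and 8. In estradiol benzoate animals 2, 3, 5 and 8 it had 0.0924, 0.151, 0.189 and 0.239, and in vehicle animals 3, 4, 5 and 8 it had 0.0447, 0.0846, 0.0920 and 0.141. The testosterone animals lay above all vehicle animals and overlapped the estradiol benzoate animals, which in turn overlapped the vehicle animals.

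Nr1d2, the repressor of Bmal1, had 13.1, 14.7 and 17.8 on its brighter probe in testosterone animals 4, 6 and 8, with both spots of animal 2 blank, so that 3 animals stand for the group. It had 8.87, 10.2, 9.62 and 12.5 in estradiol benzoate animals 2, 3, 5 and 8, and 5.17, 5.18, 8.25 and 13.5 in vehicle animals 3, 4, 5 and 8. Vehicle animal 8, read on array AB alone, lay inside the testosterone range, whereas the other vehicle animals lay below every testosterone and estradiol benzoate animal. The dimmer second probe had values in all animals and gave 0.238 to 0.420 with testosterone, 0.144 to 0.286 with estradiol benzoate and 0.0516 to 0.258 with vehicle, and vehicle animal 8 was again the highest of its group.

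Bhlhe40, the E-box repressor, had 0.237, 0.215, 0.283 and 0.219 in testosterone animals 2, 4, 6 and 8. It had 0.173, 0.184, 0.201 and 0.193 in estradiol benzoate animals 2, 3, 5 and 8, and 0.102, 0.0724, 0.105 and 0.137 in vehicle animals 3, 4, 5 and 8. By these animal values no 2 of the 3 groups overlapped, and the estradiol benzoate animals lay closer to the testosterone than to the vehicle animals. Single arrays of this dim spot did overlap. On arrays AB, testosterone animal 8 lay below estradiol benzoate animal 5 (0.2085). On arrays AA, vehicle animal 8 (0.1671) lay above estradiol benzoate animal 2 (0.1583). The gap between testosterone and estradiol benzoate animals, 0.10 on the log2 scale, was smaller than the standard deviation between duplicate arrays, 0.178. Vehicle animal 4, the lowest, was read on array AA alone.

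Bmal1, the activator of the loop, had 1.75, 2.00, 1.23 and 1.61 in testosterone animals 2, 4, 6 and 8. It had 3.15, 2.98, 3.34 and 2.30 in estradiol benzoate animals 2, 3, 5 and 8, and 3.63, 3.64, 4.09 and 3.67 in vehicle animals 3, 4, 5 and 8. Here too no 2 groups overlapped, with testosterone lowest, and the vehicle animals were the closest together of the 3 groups. Estradiol benzoate animal 8, the lowest Bmal1 of its group, was the animal with the highest Dbp.

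**Figure D1:**
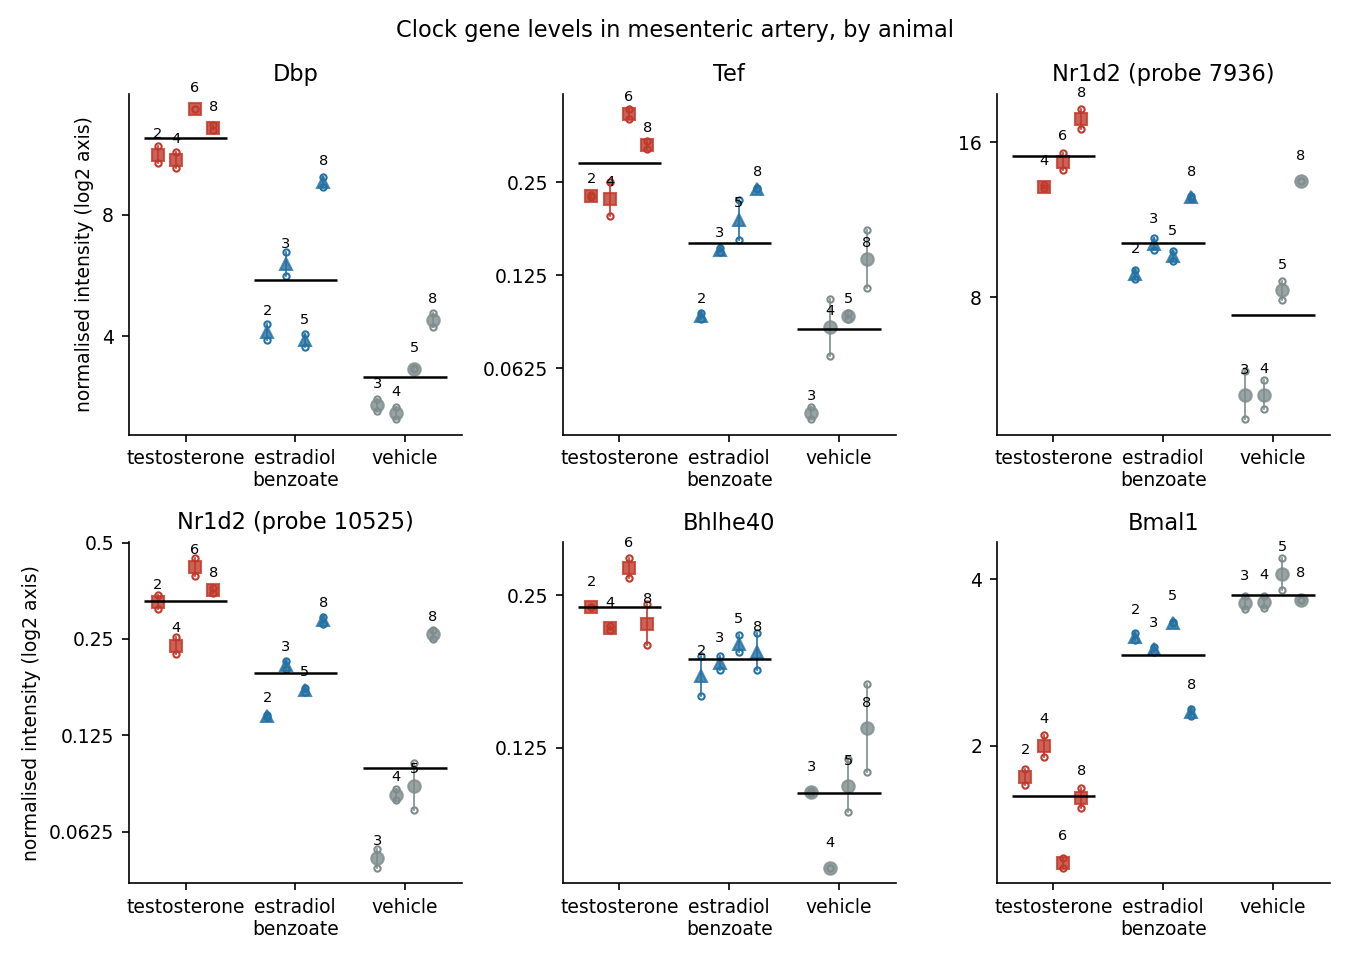
Intensity of the 6 member probes (log2 axis) in testosterone, estradiol benzoate and vehicle animals: filled symbols are animals with their label number, open symbols their duplicate arrays and bars the group means. Dbp lies at 10.9 to 14.6 with testosterone, 3.91 to 9.63 with estradiol benzoate and 2.58 to 4.38 with vehicle, and Bmal1 runs the other way.

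Separation of all 3 groups, judged on the animal values and not on single arrays, was uncommon. Of the 10228 probes, 2 were without overlap between any groups with testosterone highest (0.0196%), Bhlhe40 and the glutamate receptor subunit gene Grin2c. Another 2 were so with testosterone lowest (0.0196%), Bmal1 and probe 16740, which is unnamed here; Grin2c and this probe were singled out after their values were seen. The gaps differed in size: Grin2c had 0.476 to 0.531 with testosterone, 0.456 to 0.474 with estradiol benzoate and 0.421 to 0.442 with vehicle (3 animals), so its whole range was narrower than that of Bhlhe40. Because the members were chosen on the contrast of testosterone and vehicle, their place among these 4 probes is no test.

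Duplicate arrays of the same animal differed less than animals of the same group. The standard deviation (SD) between duplicates, on the log2 scale, was 0.0814 for Dbp, 0.0643 for Bmal1 and 0.0965 for the brighter Nr1d2 probe, against 0.417, 0.225 and 0.419 between animals of a group. For the dimmer Tef and Bhlhe40 spots it was 0.217 and 0.178, against 0.579 and 0.247 between animals. The spread of Bhlhe40 between animals is thus the least far from that of its duplicate arrays. The number of animals limits the precision of all these values. In whole vessel pieces, fewer cells of a type and less RNA per cell cannot be told apart.

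Between testosterone and vehicle, the comparison from which the members came, Dbp was 3.90-fold higher (log2 change 1.96, standard error (SE) 0.27), Tef 3.44-fold (1.78, SE 0.37) and Bhlhe40 2.34-fold (1.22, SE 0.17). Nr1d2 was 2.04-fold higher on the brighter probe (1.03, SE 0.30, 3 testosterone animals) and 3.33-fold on the second (1.73, SE 0.41). Bmal1 was 2.31-fold lower (-1.21, SE 0.15). Of the 5 members, 3 were among the probes called at an adjusted p under 0.05 (limma, Benjamini-Hochberg over all probes), namely Dbp, Bhlhe40 and Bmal1, where 0.0489% of all probes were called. All 5 had an unadjusted p under 0.05 (14.0% of all probes), and 3 were higher without overlap (Dbp, Tef and Bhlhe40, 2.45% of all probes) and 1 lower (Bmal1, 3.14%). These counts follow from how the genes were chosen. With single animals left out, 10153 to 10200 probes were tested. The number of members called was 0 without vehicle animal 3, without estradiol benzoate animal 3 or without testosterone animal 2, 6 or 8. In those fits 0 or 1 of all probes were called. Without testosterone animal 4, 1 member was called (1 of all probes). Called members numbered 2 without vehicle animal 4 (7 of all probes) or without estradiol benzoate animal 5 (4) or 8 (3). They numbered 3 in the other cases (5 to 45 of all probes), while no log2 change turned its sign. The main Nr1d2 probe could not be tested without testosterone animal 4, 6 or 8, so those fits held 4 members. Adding 0.1 to the values before the log2 step brought the dim probes down to 0.73 for Bhlhe40, 1.05 for Tef and 1.05 for the second Nr1d2 probe.

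Between estradiol benzoate and vehicle, every member pointed the same way as with testosterone, and 0 of 5 passed in the limma fit, as 0 of all probes did (0.0%). This comparison shares the vehicle animals with the one that chose the members, so agreement in sign between them is not independent. Bhlhe40 was 1.85-fold higher with estradiol benzoate (log2 change 0.88, SE 0.17, 95% interval 0.52 to 1.25, adjusted p = 0.125), with all 4 animals above all vehicle animals. Bmal1 was 1.29-fold lower (-0.36, SE 0.15, interval -0.70 to -0.03, adjusted p = 0.335), again without overlap.

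Those were the 2 members without overlap between these groups, 1 higher, where 3.53% of all probes were, and 1 lower, where 4.28% were. Dbp was 1.74-fold higher with estradiol benzoate (0.80, SE 0.27, adjusted p = 0.280) and Tef 1.89-fold (0.92, SE 0.37, adjusted p = 0.325), each with 4 of 4 animals above the vehicle mean and with overlap. Nr1d2 had log2 changes of 0.47 (SE 0.28, adjusted p = 0.465) and, on the second probe, 0.99 (SE 0.41, adjusted p = 0.327). At an unadjusted p under 0.05 there were 4 of 5 members on their main probes, all but Nr1d2, and 13.5% of all probes. The second Nr1d2 probe had an unadjusted p of 0.0331 in the limma fit. Without estradiol benzoate animal 8, whose Dbp was the highest of its group, the Dbp difference was 0.53. The Nr1d2 difference ranged from 0.30 without vehicle animal 3 to 0.76 without vehicle animal 8.

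Set side by side, the estradiol benzoate difference amounted to 72.3% of the testosterone difference for Bhlhe40, 51.7% for Tef, 45.4% for Nr1d2 (57.3% on its second probe), 40.6% for Dbp and 30.1% for Bmal1, on the log2 scale. Both differences are taken from the same vehicle animals. The share was highest for Bhlhe40 and lowest for Bmal1, and whether these shares differ between genes was not tested.

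**Figure D2:**
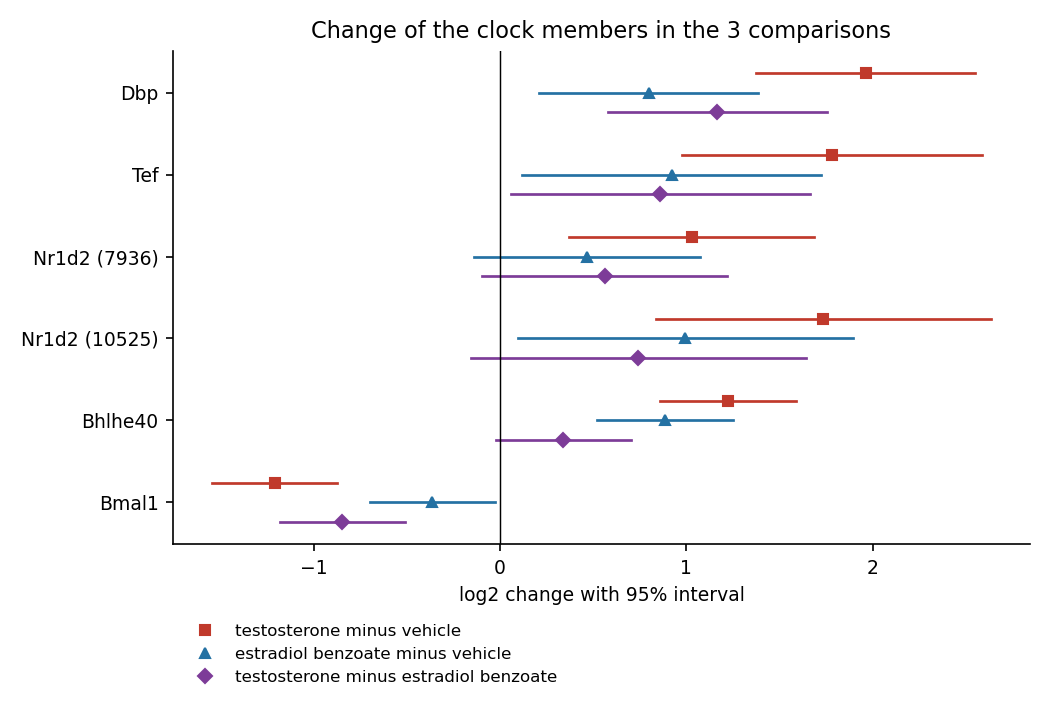
Log2 change of each member probe with its 95% interval for testosterone minus vehicle, estradiol benzoate minus vehicle and testosterone minus estradiol benzoate. The testosterone changes from vehicle are wider than the estradiol benzoate changes on all 6 probes, from 1.22 against 0.88 for Bhlhe40 to -1.21 against -0.36 for Bmal1.

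The direct comparison of both hormones uses the testosterone animals that also chose the members. In it, 0 of 5 members passed in the limma fit, in which 0.0293% of all probes did. Bmal1 was 1.80-fold lower with testosterone than with estradiol benzoate (log2 change -0.85, SE 0.15, 95% interval -1.18 to -0.51, adjusted p = 0.219), with all 4 testosterone animals below all estradiol benzoate animals. Dbp was 2.24-fold higher (1.17, SE 0.27, interval 0.58 to 1.75, adjusted p = 0.337), also without overlap. Bmal1 passed when the fit was limited to the probes above the median level and when all 24 arrays entered with the animal as a random block, and over all alternatives its adjusted p ran between 0.000653 and 0.684. Dbp passed with the random block alone, and its adjusted p ran between 0.00663 and 0.806.

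Tef differed by 0.86 (SE 0.37), Nr1d2 by 0.56 (SE 0.30) and 0.74 (SE 0.41) on its 2 probes, and Bhlhe40 by 0.34 (SE 0.17), each with an adjusted p of 0.999 in the limma fit. The 95% intervals of Bhlhe40 (-0.02 to 0.70) and of both Nr1d2 probes (-0.09 to 1.22 and -0.16 to 1.64) included 0. In all, 3 members were higher with testosterone than with estradiol benzoate without overlap (Dbp, Nr1d2 and Bhlhe40, 1.17% of all probes) and Bmal1 was lower (1.88%). For Nr1d2 this held on the main probe, which had 3 testosterone animals, while the groups overlapped on the second probe. For Bhlhe40 it held for the animal values, while single arrays of these groups overlapped. An unadjusted p under 0.05 was reached by 3 members, Dbp, Tef and Bmal1, and by 4.13% of all probes.

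Within a group, the same animals tended to stand at the ends of the range for several members. Vehicle animal 8 had the highest Dbp, Tef, Nr1d2 and Bhlhe40 of the vehicle animals, 4 of the 4 members other than Bmal1. Its Bmal1 of 3.67 lay inside the range of the group. Testosterone animal 4 had the lowest value for the same 4 members (for Nr1d2, of the 3 animals with a value) and the highest Bmal1 of its group. Testosterone animal 6 had the highest Dbp, Tef and Bhlhe40 and the lowest Bmal1. Estradiol benzoate animal 8 had the highest Dbp, Tef and Nr1d2 and the lowest Bmal1, and its Dbp of 9.63 stood beside 3.91 to 6.03 in the other animals of the group. Other animals stood differently. Vehicle animal 3 had the lowest Tef and Nr1d2 and also the lowest Bmal1 of its group. Estradiol benzoate animal 5 had the lowest Dbp but the highest Bhlhe40 and the highest Bmal1.

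This spread was put into numbers by subtracting each group's mean and correlating the deviations over animals, for all 10 pairs of members, with two-sided exact permutation within groups and p-values adjusted over the 10 pairs. The deviations do not contain the group differences that chose the genes. Dbp and Nr1d2 deviated together over the 11 animals with both values (Pearson r = 0.71, exact permutation p = 0.00347, adjusted p = 0.0347), and 9 of 11 animals had deviations of the same sign. Spearman's rank correlation was 0.77 (exact permutation p = 0.0110, adjusted p = 0.0868), and r was 0.84 without the 2 animals farthest from the median Dbp deviation. This was the 1 pair of 10 that passed by Pearson's r, and 0 pairs passed by Spearman's coefficient. The pair of Dbp and Nr1d2 no longer passed with any 1 of vehicle animals 5 and 8, estradiol benzoate animals 3 and 8 or testosterone animal 4 left out, with r from 0.68 to 0.79 over all single animals left out and an adjusted p up to 0.139. Each such omission leaves fewer arrangements to permute.

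The opposite pair of the loop, Dbp and Bmal1, had r = -0.67 over 12 animals (exact permutation p = 0.0116, adjusted p = 0.0579), with deviations of opposite sign in 8 of 12 animals. Spearman's rank correlation was -0.53 (exact permutation p = 0.0825, adjusted p = 0.165). Without the 2 animals farthest from the median Dbp deviation r was -0.54, and without estradiol benzoate animal 8 alone it was -0.43. In the vehicle group, Bmal1 of animals 3, 4 and 8 ran only from 3.63 to 3.67 while their Dbp ran from 2.58 to 4.38. In the testosterone and in the estradiol benzoate group, the animal with the highest Dbp had the lowest Bmal1.

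Tef also deviated with the other output genes, with r = 0.68 for Dbp and Tef (exact permutation p = 0.0326, adjusted p = 0.0814) and r = 0.74 for Tef and Nr1d2 (11 animals, exact permutation p = 0.0243, adjusted p = 0.0810). For Dbp and Tef, r was 0.48 without the 2 animals farthest from the median Dbp deviation. The remaining pairs had r of 0.49 for Dbp and Bhlhe40, 0.48 for Tef and Bhlhe40, 0.70 for Nr1d2 and Bhlhe40, -0.49 for Tef and Bmal1, -0.18 for Nr1d2 and Bmal1 and -0.28 for Bhlhe40 and Bmal1. Their adjusted exact permutation p-values ran from 0.114 to 0.400. For Nr1d2 and Bmal1, r was -0.021 without estradiol benzoate animal 8, and for Bhlhe40 and Bmal1 it was -0.0065 without testosterone animal 6.

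Both genes of a pair were read on the same arrays. With the first gene taken from array AA and the second from array AB, 5 of 10 pairs passed by Pearson's r. Among them was that of Dbp and Bmal1 (r = -0.80, 11 animals, adjusted exact permutation p = 0.0203). Its r was -0.51 without the 2 animals farthest from the median Dbp deviation. By Spearman's rank correlation no pair passed in this setting (lowest adjusted exact permutation p = 0.0521, for Dbp and Nr1d2). The pairs of Dbp and Nr1d2 with Bhlhe40 turned negative (-0.34 over 10 animals and -0.51 over 9 animals). Blank spots took testosterone animal 6 and vehicle animal 4 out of the former pair. They took vehicle animals 4 and 8 out of the latter, which already lacked testosterone animal 2. The set of animals thus changed along with the arrays. With the second Nr1d2 probe, which has a value in all 12 animals, Dbp and Nr1d2 had r = 0.75 (adjusted exact permutation p = 0.0130) and 11 of 12 deviations of the same sign. Both alternatives were chosen after the data had been seen.

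**Figure D3:**
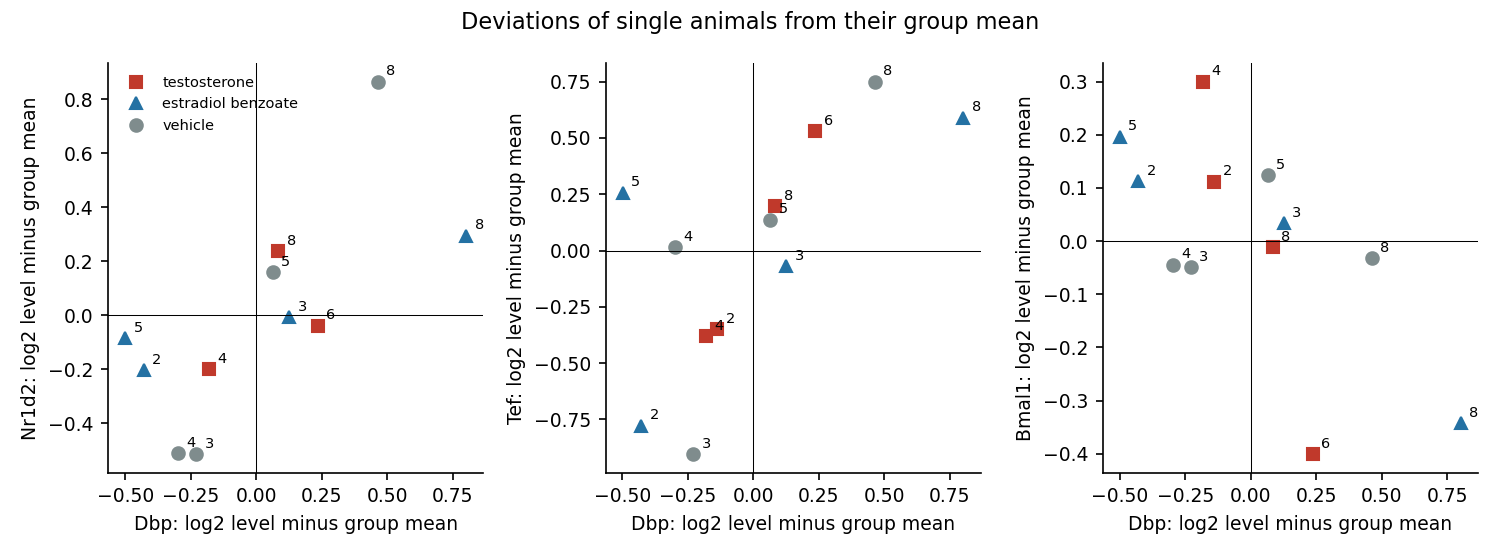
Deviations of each animal from its group mean (log2) for Nr1d2, Tef and Bmal1 against Dbp, with testosterone, estradiol benzoate and vehicle animals marked by symbol and label number. Nr1d2 and Tef run with Dbp (r of 0.71 and 0.68) and Bmal1 against it (r of -0.67), with estradiol benzoate animal 8 farthest to the right in each panel. By Pearson's r the pair of Dbp and Nr1d2 passed after adjustment and the other pairs did not. By Spearman's coefficient no pair passed.

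Other genes of the loop were sparsely measured, several of them by dim probes. Of 25 further core clock genes, 7 could be tested (Btrc, Clock, Cry2, Csnk1d, Csnk1e, Per2 and Prkaa1), and Per1, Per3, Cry1, Nr1d1, Npas2 and the ROR genes were not among them. For testosterone minus vehicle, estradiol benzoate minus vehicle and testosterone minus estradiol benzoate, 0 of the 7 passed in the limma fit. Of all probes 0.0489%, 0.0% and 0.0293% passed. An unadjusted p under 0.05 was reached by 0 of the 7 and by 14.0%, 13.5% and 4.13% of all probes. With such shares, a count of 0 among 7 genes says little. Per2, Clock, Csnk1e and Btrc were dim, at percentiles 9.23, 17.8, 19.1 and 22.0 of mean level among tested probes. The median log2 change of the 7 was 0.07 for testosterone minus vehicle, -0.04 for estradiol benzoate minus vehicle and 0.05 for testosterone minus estradiol benzoate, against -0.01, -0.01 and 0.00447 over all probes.

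Clock, which codes for the partner of BMAL1, had 0.0966 to 0.129 with testosterone, 0.0808 to 0.163 with estradiol benzoate and 0.0877 to 0.160 with vehicle. Its testosterone minus vehicle difference was -0.20 (SE 0.22, adjusted p = 0.714), and all 3 ranges overlapped. Cry2, a repressor of the complex and a brighter spot, had 2.83 to 3.40 with testosterone, 2.79 to 3.32 with estradiol benzoate and 2.87 to 3.46 with vehicle, and its testosterone minus vehicle interval ran from -0.28 to 0.15. Differences of the size seen for Dbp or Bmal1 lay outside that interval.

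Of 14 genes known to share the phase of Dbp, 3 could be tested, and all 3 were on the higher side with testosterone than with vehicle without passing. Wee1, a kinase that delays mitosis and carries E-boxes in mouse, had 0.639 to 0.748 with testosterone, 0.539 to 0.635 with estradiol benzoate and 0.476 to 0.644 with vehicle. Its testosterone minus vehicle change was 0.37 (SE 0.11, adjusted p = 0.225), and its testosterone animals did not overlap the estradiol benzoate animals. Per2, a repressor of the complex, was a very dim spot with 0.0340 to 0.0546 with testosterone, 0.0357 to 0.0419 with estradiol benzoate and 0.0229 to 0.0450 with vehicle (0.40, SE 0.20, adjusted p = 0.393 for testosterone minus vehicle). Usp2, a ubiquitin protease, had a testosterone minus vehicle difference of 0.22 (SE 0.11, adjusted p = 0.420), while its second probe gave -0.04 (SE 0.13).

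Of 7 genes known to share the phase of Bmal1, Clock and Gpr176, a receptor gene of the brain clock in mouse, could be tested. Gpr176 had a testosterone minus vehicle change of 0.11 (SE 0.12, adjusted p = 0.713), on the other side of 0 from Bmal1. Taking the core and both phase lists together, 0 of 10 genes passed in any comparison under any alternative setting tried. In the main fit 0.0489%, 0.0% and 0.0293% of all probes passed in the 3 comparisons, so this count says little. With the filter for probes above the median level, 1 of the 10 genes was tested.

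**Figure D4:**
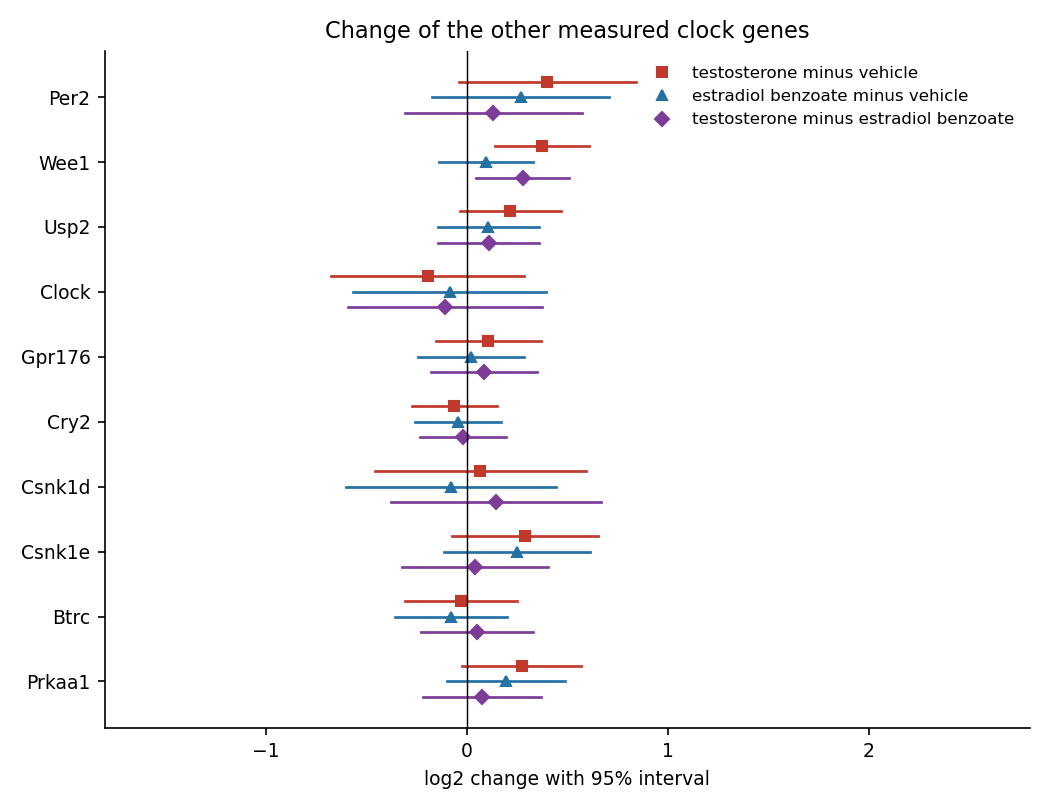
Log2 change with its 95% interval of the 10 other measured genes of the clock lists, for testosterone minus vehicle, estradiol benzoate minus vehicle and testosterone minus estradiol benzoate. The widest change is 0.40, for Per2 in testosterone minus vehicle, and for testosterone minus vehicle 1 interval, that of Wee1, lies wholly above 0.

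Genes known in liver and kidney to be driven by DBP, TEF and their relative HLF were looked at as a list. Of 13 such genes, 6 could be tested and 0 passed in any comparison, where at most 0.0489% of all probes did. With testosterone against vehicle 3 were higher and 3 lower, with a median log2 change of 0.07. Alas1, the first enzyme of heme synthesis, had 0.292 to 0.448 with testosterone, 0.286 to 0.390 with estradiol benzoate and 0.233 to 0.330 with vehicle (0.44, SE 0.18, adjusted p = 0.324 for testosterone minus vehicle). Cyp7a1, the rate-limiting enzyme of bile acid synthesis in liver, was close to background, with group means of 0.0144, 0.0113 and 0.0509 for testosterone, estradiol benzoate and vehicle. Vehicle animal 5 stood at 0.225, and the vehicle mean was 0.0310 without it. The changes from vehicle were then -1.11 (SE 0.73) with testosterone and -1.45 (SE 0.73) with estradiol benzoate. With all animals they were -1.82 (SE 0.83) and -2.17 (SE 0.83).

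Glucocorticoids reset clocks in tissues outside the brain, so genes that answer to them were set beside the members. Of 14, 5 could be tested and 0 passed in any comparison, where at most 0.0489% of all probes did. The median log2 change was -0.03 with testosterone and 0.11 with estradiol benzoate, each against vehicle. Between testosterone and estradiol benzoate, 0 of the 5 were higher and 5 lower, with a median of -0.33. Fkbp5, a classical target, had changes of 0.25 (SE 0.28) and 0.59 (SE 0.28) against vehicle for testosterone and estradiol benzoate. Vehicle animal 5 stood at 0.379, above the 0.162 to 0.174 of the other vehicle animals, and without it the changes were 0.55 (SE 0.21, adjusted p = 0.334) and 0.88 (SE 0.21, adjusted p = 0.136) in the limma fit. Cdkn1a, a cell cycle inhibitor, had 1.77 to 3.36 with testosterone, 3.65 to 4.95 with estradiol benzoate and 2.90 to 5.53 with vehicle (-0.71, SE 0.22, adjusted p = 0.249 for testosterone minus vehicle). Its testosterone animals lay below all estradiol benzoate animals (-0.81, SE 0.22, adjusted p = 0.589), while on its second probe those groups overlapped.

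**Figure D5:**
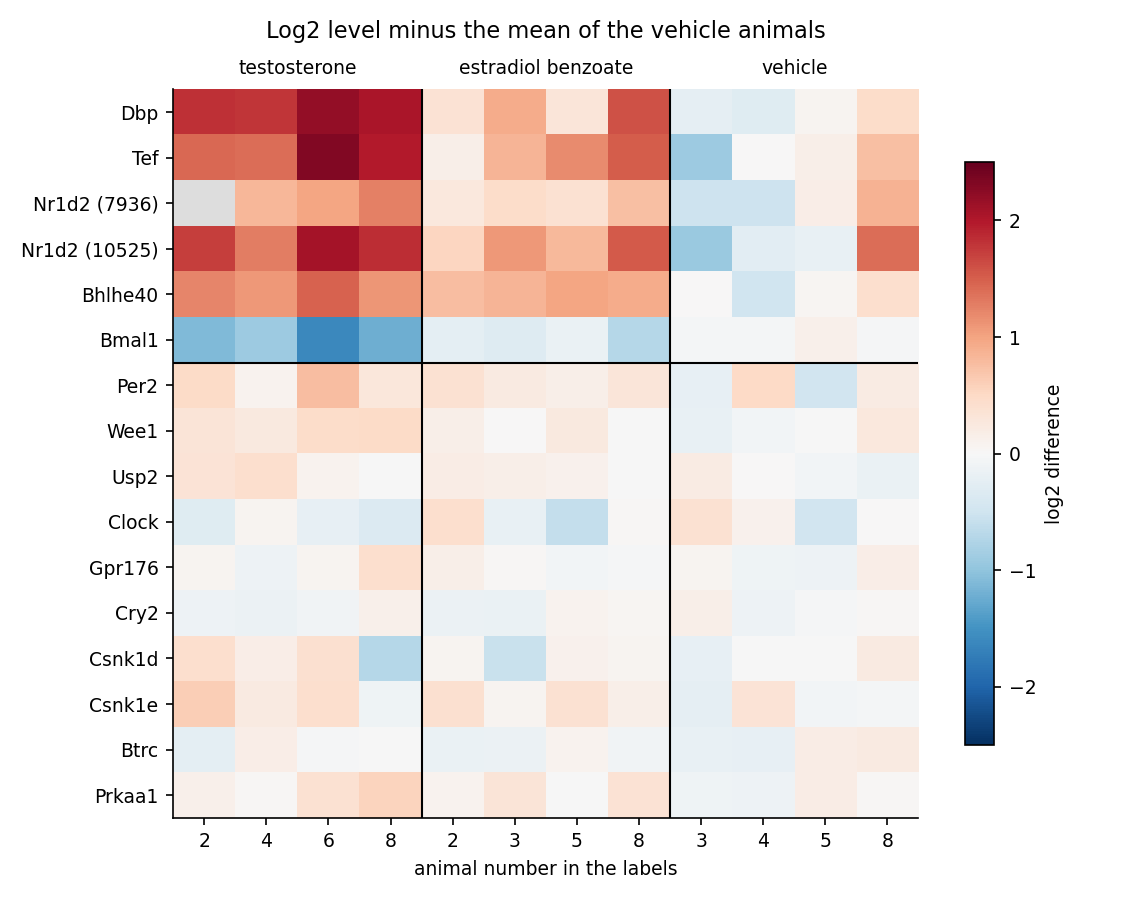
Log2 level of each animal minus the mean of the vehicle animals for the member probes (above the line) and 10 other clock genes (below), with testosterone, estradiol benzoate and vehicle animals from left to right and a grey cell for a missing value. Dbp reaches 1.78 to 2.20 in the testosterone animals and 1.60 in estradiol benzoate animal 8, and the lower block stays pale.

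The genes whose levels ran most like those of Dbp over the 12 animals were ranked among 3432 genes with a value in every animal and a mean level above the array median. Tef and Bhlhe40 lay below that level and the main Nr1d2 probe lacked testosterone animal 2, so these 3 members were not ranked. Bmal1 was the gene most opposite to Dbp (r = -0.94), followed by Klf4, a transcription factor of the vessel wall (-0.92), Ip6k1 (-0.89), Cmip (-0.88) and Sars1 (-0.87). The most similar were Kcnj8, a potassium channel subunit of vascular muscle (0.85), Pgrmc1 (0.84), Napa (0.84), Vkorc1l1 (0.83) and Ephx1 (0.83). Dbp was in turn the gene most opposite to Bmal1, and Klf4 (0.90), Tppp3 (0.82), Emd (0.81), Ip6k1 (0.81) and Sars1 (0.80) were most similar to Bmal1. These values describe likeness only, since they pool the group differences, and all genes were read on the same arrays.

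With the group means taken out, the ranking changed. Ctsc (0.89) and Atp1b3 (0.87) were then most similar to Dbp and Tigar (-0.93) and Faap24 (-0.88) most opposite, and Tox4 (0.86) was most similar to Bmal1 and Sts (-0.89) most opposite. In that ranking the 5 genes at either end held neither Klf4 nor the other ranked member, for Dbp as for Bmal1. The testosterone minus vehicle change of Klf4 was -0.54 and that of Kcnj8 0.22, against 1.96 for Dbp.

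The samples carried RNA of other cell types in uneven amounts. The endothelial list (7 of 10 genes measured) had summed intensities of 58.0 to 71.4 with testosterone, 50.7 to 63.3 with estradiol benzoate and 57.0 to 68.2 with vehicle. Smooth muscle rested on 2 of 12 genes, Cnn1 and Smtn, with sums of 34.1 to 44.7, 31.9 to 43.7 and 35.5 to 52.8 in the same groups, and Acta2 and Myh11 had no tested probe with a single symbol. White fat genes (12 of 20 measured) summed to 138 to 174 with testosterone, 154 to 186 with estradiol benzoate and 121 to 148 with vehicle, with 11 of 12 genes higher in each hormone group than in vehicle. The adipocyte hormone gene Adipoq overlapped, at 19.8 to 29.98, 23.3 to 26.1 and 23.4 to 29.9. Higher than vehicle without overlap were 2 of 12 white fat genes with testosterone and 5 with estradiol benzoate (2.45% and 3.53% of all probes). In the limma fit, 4 and 7 of the 12 had an unadjusted p under 0.05 (14.0% and 13.5% of all probes). No list gene of white or brown fat passed the test, where at most 0.0489% of all probes did in any comparison. The white fat sum had medians of 157 with testosterone, 176 with estradiol benzoate and 133 with vehicle. Its part in the members' differences was not tested.

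Lymphocyte genes (9 of 17 measured) summed to 1.58 to 2.20 with testosterone, 1.70 to 2.45 with estradiol benzoate and 1.61 to 1.94 with vehicle. Their mean log2 deviation, which weights the genes equally, was -0.03 to 0.33 with testosterone, 0.0047 to 0.45 with estradiol benzoate and -0.66 to -0.17 with vehicle, so every vehicle animal lay below all hormone-treated animals, and all 9 genes were higher in each hormone group than in vehicle. Brown fat genes (6 of 9) summed to 4.97 to 6.52, 6.03 to 7.54 and 4.64 to 5.20. Striated muscle genes (5 of 12) summed to 3.90 to 8.33, 3.80 to 6.13 and 2.36 to 6.42. The parts of these 3 lists in the members' differences were not tested either. Liver genes (10 of 22) summed to 2.12 to 3.01 with testosterone, 2.60 to 3.81 with estradiol benzoate and 2.07 to 35.1 with vehicle, the highest being vehicle animal 5. The mean log2 deviation of the liver genes was -0.83 to -0.51 with testosterone, -0.76 to -0.07 with estradiol benzoate and -0.37 to 2.85 with vehicle, without overlap between testosterone and vehicle, and its part in the members' differences was not tested. Pancreas genes (9 of 18) summed to 0.647 to 2.48 with testosterone, 0.749 to 105.8 with estradiol benzoate, the highest being animal 3, and 0.643 to 1.37 with vehicle. Without vehicle animal 5, the testosterone minus vehicle changes were 1.98 for Dbp, 1.83 for Tef, 1.08 for Nr1d2, 1.24 for Bhlhe40 and -1.17 for Bmal1; estradiol benzoate animal 3 does not enter those differences. Without both animals, the estradiol benzoate minus vehicle changes were 0.78 for Dbp, 0.99 for Tef, 0.52 for Nr1d2 (0.90 on its second probe), 0.91 for Bhlhe40 and -0.33 for Bmal1.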

How the data were processed

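Mesenteric artery RNA of 12 rats was hybridised to 24 one-colour CodeLink arrays, 2 per animal from the same cRNA, per the labels. The deposited values are linear spot intensity, already scaled by the authors so that array medians lie between 0.926 and 0.951. How background was corrected, how values were scaled and which spots were dropped is not given in the sources used here. Empty spots (152 to 665 per array) and 327 values at or below 0 (5 to 52 per array) were treated as missing, log2 was taken with no pseudocount, and the duplicates of an animal were averaged, so that the animal was the replicate. Duplicates correlated across probes at 0.976 to 0.993. Nothing in the labels says that animals shared litters or cages. The limma p-values set group differences against the spread between these animals, moderated over all probes.

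Of 10399 probes, 10228 were measured in 3 or more animals of every group and tested. A single symbol was listed for 7294 probes, several for 88 and none for 3017. Where a gene had several probes, the one with the highest mean stood for it. A group-means model was fitted to all 12 animals with limma 3.58.1 in R 4.3.3 (9 residual and 2.51 prior degrees of freedom), with two-sided tests and Benjamini-Hochberg adjustment over the 10228 probes, and called at 0.05. The fit and the within-group test were tested on simulated data. Deviations from group means were correlated with exact permutation within groups.

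The 5 members, the gene lists and the alternatives were chosen with earlier results of these data known. Named genes were all probes of the members, the measured genes of the clock lists, up to 4 each of the target and glucocorticoid lists by the smallest unadjusted p, and the 5 genes at each end of a likeness ranking. Promoter sequences are from RefSeq (GRCr8), and all 5 members matched by symbol. Animal numbers shared between groups were checked for pairing: the correlations of same-numbered animals' deviations ran from -0.116 to 0.298, so the numbers were not taken to pair the animals. Alternatives covered the pseudocount, quantile normalization, filters, single arrays, a random block, the variance prior, the groups in the fit and leaving out animals.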

Additional observations from a re-analysis of the deposited data

Results flagged for a closer look

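Of 89 groups of 4 animals checked among the members and the related gene lists, 5 held 1 animal far from the other 3, by Dixon's 95% value, and chance alone marks about 1 in 20 such groups. Bmal1 stood apart in vehicle animal 5, with a log2 level of 2.03 (intensity 4.09, against 3.63 to 3.67 in the other vehicle animals). This is the animal with the highest sum of liver genes, and the other members of animal 5 lay inside the range of their group. Fkbp5 stood apart in the same animal, at -1.40 (0.379, against 0.162 to 0.174). Csnk1d, a kinase that marks PER proteins for breakdown, stood apart in estradiol benzoate animal 3, at -1.49 (0.356, against 0.543 to 0.560). The second Usp2 probe stood apart in the same animal, at -1.76 (0.295, against 0.367 to 0.375), and in testosterone animal 6, at -1.13 (0.457, against 0.398 to 0.402). Estradiol benzoate animal 3 had the highest sum of pancreas genes, and testosterone animal 6 the highest Dbp, Tef and Bhlhe40.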

How the results depend on the processing

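No log2 change of a member turned its sign in any of the alternatives run. In these alternatives 0 other clock genes passed, a count that says little with so few of all probes passing. The number of probes called between testosterone and vehicle, 5, was 8 with quantile normalization, 3 with arrays AA alone, 151 with all 24 arrays and the animal as a random block, 1 with only the 2 groups compared in the fit, 29 without vehicle animal 5 and estradiol benzoate animal 3, and 0 to 45 with 1 animal left out. Between estradiol benzoate and vehicle, 0 became 5 among probes above the median level, 1 with arrays AA alone, 226 with the random block, 3 with a trended and robust prior and 0 to 2 with 1 animal left out. Between testosterone and estradiol benzoate, 3 became 5 among probes above the median level, 1 with arrays AA alone, 40 with the random block and 0 to 1 with 1 animal left out. It became 0 with quantile normalization, with arrays AB alone, with only the 2 groups compared and without the 2 animals named above. With the animal number as a replicate block, 0 probes passed in each of the 3 comparisons, and the numbers are not known to pair the animals. The random block treats duplicate arrays as further observations, and with it members passed as well: 5 of 5 for testosterone minus vehicle, 2 for estradiol benzoate minus vehicle (Bhlhe40 and Dbp) and 2 for testosterone minus estradiol benzoate (Bmal1 and Dbp).

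The 1 pair of members called within groups became 2 with quantile normalization, 0 with arrays AA alone, 3 with arrays AB alone, 5 with the genes of a pair on different arrays, 3 with the second Nr1d2 probe, 0 by Spearman's rank correlation, 0 without vehicle animal 5 and estradiol benzoate animal 3, and 0 to 3 with 1 animal left out. The relation of Dbp and Bhlhe40 was reversed with arrays AB alone (r = -0.017) and with the genes on different arrays (-0.34), as was that of Nr1d2 and Bhlhe40 with the genes on different arrays (-0.51). In each of these settings blank spots also took animals out of the pair. The cause was not tested. Tef, Bhlhe40 and the second Nr1d2 probe lie well below the array median, so signal over background limits them, and a pseudocount of 0.1 is of the size of their levels. The number of animals limits all results.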
